A study of Homo sapiens with 3 samples.

Results

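The mitochondrial ribosomal protein genes were taken as every gene symbol that starts with MRPL or MRPS followed by a digit, without read-through symbols that join 2 genes by a hyphen. The rule found 78 genes among 16793 gene symbols, and it used no measured value. It left out 1 read-through symbol, URGCP-MRPS24. The genes were followed by RNA-seq in H446, a human small cell lung cancer cell line, after 48 h with vehicle, with 5 µM BAS or with 10 µM BAS. BAS is 3-bromoascochlorin, a brominated derivative of the fungal compound ascochlorin. Each group has 1 library, so no difference below has a replicate check or a p-value, and all 3 libraries come from 1 cell line. In the headers the treated libraries go by the codes ASB85 and ASB810 and the doses stand in the labels alone, so the match of code to dose rests on the labels. Both comparisons with vehicle share the 1 vehicle library.

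Mitochondria keep their own ribosome, which translates the few proteins encoded by mitochondrial DNA, all of them subunits of the respiratory chain and the ATP synthase. Its RNAs are transcribed in the organelle, whereas its proteins are encoded in the nucleus, made in the cytosol and imported. The small subunit binds the messenger RNA and the large subunit joins the amino acids. Many of the proteins have a counterpart in the bacterial ribosome, and others were added during the evolution of mitochondria.

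By the known make-up of the human particle, 26 of the 78 genes encode small subunit proteins and 51 encode large subunit proteins, with MRPS30 and MRPS18A among those of the large subunit despite their names. The symbol rule also takes in MRPS36, whose protein is known as a subunit of the 2-oxoglutarate dehydrogenase complex and not of the ribosome, so the group's name does not hold for it. Another 5 measured genes encode ribosomal proteins under other names (DAP3, PTCD3, CHCHD1, AURKAIP1 and GADD45GIP1), which makes 82 ribosomal protein genes in all. All 78 genes passed the filter of a mean of at least 1 FPKM (read fragments scaled to transcript length and to the mapped reads of the library) over the 3 libraries, which left 11512 genes.

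The values summed to 487923 FPKM with vehicle, 507342 FPKM with 5 µM BAS and 492102 FPKM with 10 µM BAS, and the read depth behind them is unknown. Of 10 measured markers of small cell lung cancer and neuroendocrine cells, 9 reached 1 FPKM in each library and POU2F3 did not. Of these 9, 6 (66.7%) were above vehicle at 10 µM, against 56.5% of all genes past the filter, and 3 were below. They ran from 0.648 of vehicle for POU4F1 to 3.36 times vehicle for CHGA. CHGA and UCHL1 (22.2% of the 9) passed 2-fold upward, against 1.31% of all genes past the filter. Of 13 measured markers of cells foreign to the culture, the number that reached 1 FPKM was 5 with vehicle, 4 in the 5 µM library and 6 in the 10 µM library. Their summed level was 811 FPKM with vehicle, 991 FPKM with 5 µM BAS and 979 FPKM with 10 µM BAS, carried mainly by the collagen genes COL1A2 and COL3A1. COL1A1 measured 63.6 FPKM with vehicle, 85.8 FPKM with 5 µM BAS and 98.5 FPKM with 10 µM BAS. CDH5 measured 57.6 FPKM with vehicle, 55.8 FPKM with 5 µM BAS and 52.0 FPKM with 10 µM BAS, while PECAM1 and VWF were at or under 0.46 FPKM in every library. CD79A was listed at 0 with vehicle and at 10 µM and SFTPC at 5 µM. Whether this RNA came from the H446 cells or from others, and the part of these markers in the results, was not tested. In bulk RNA, fewer cells of a type and less RNA per cell cannot be told apart.

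The 78 genes were well expressed. With vehicle, their median level was 38.3 FPKM and the range was 8.74 to 211.67 FPKM. Of the 78, 75 lay above 12.1 FPKM, the median with vehicle of the genes past the filter. Their summed level was 3958 FPKM with vehicle, 4174 FPKM with 5 µM BAS and 3951 FPKM with 10 µM BAS, or 0.811%, 0.823% and 0.803% of each library's total. The share of the library held by the whole set thus stayed within a narrow band over the doses. The small subunit genes had a median level of 42.4 FPKM with vehicle and the large subunit genes 37.0 FPKM.

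The 4 highest levels with vehicle were those of MRPL51, MRPL12, MRPL24 and MRPS6. MRPL51, a large subunit protein without a bacterial counterpart, measured 212 FPKM with vehicle, 199.62 FPKM with 5 µM BAS and 204 FPKM with 10 µM BAS. MRPL12, the factor-binding stalk protein, measured 162 FPKM with vehicle, 190.01 FPKM with 5 µM BAS and 169 FPKM with 10 µM BAS. MRPL51 stood above the other 77 genes in all 3 libraries, and MRPL12 had its own highest level at 5 µM. MRPL12 shares 66.6% of its 50-base transcript sequences with AC139530.2, so that its reads could be split between these genes. The 4 lowest levels with vehicle were those of MRPS25, MRPL22, MRPL19 and MRPS36. MRPS25, a small subunit protein without a bacterial counterpart, measured 8.74 FPKM with vehicle, 9.65 FPKM with 5 µM BAS and 10.3 FPKM with 10 µM BAS. MRPL19, which has a bacterial counterpart, measured 10.7 FPKM with vehicle, 10.5 FPKM with 5 µM BAS and 11.5 FPKM with 10 µM BAS. These low genes kept their place near the bottom of the order at both doses, and without replicates no spread can be set against the gap between neighbours in the order.

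**Figure D1:**
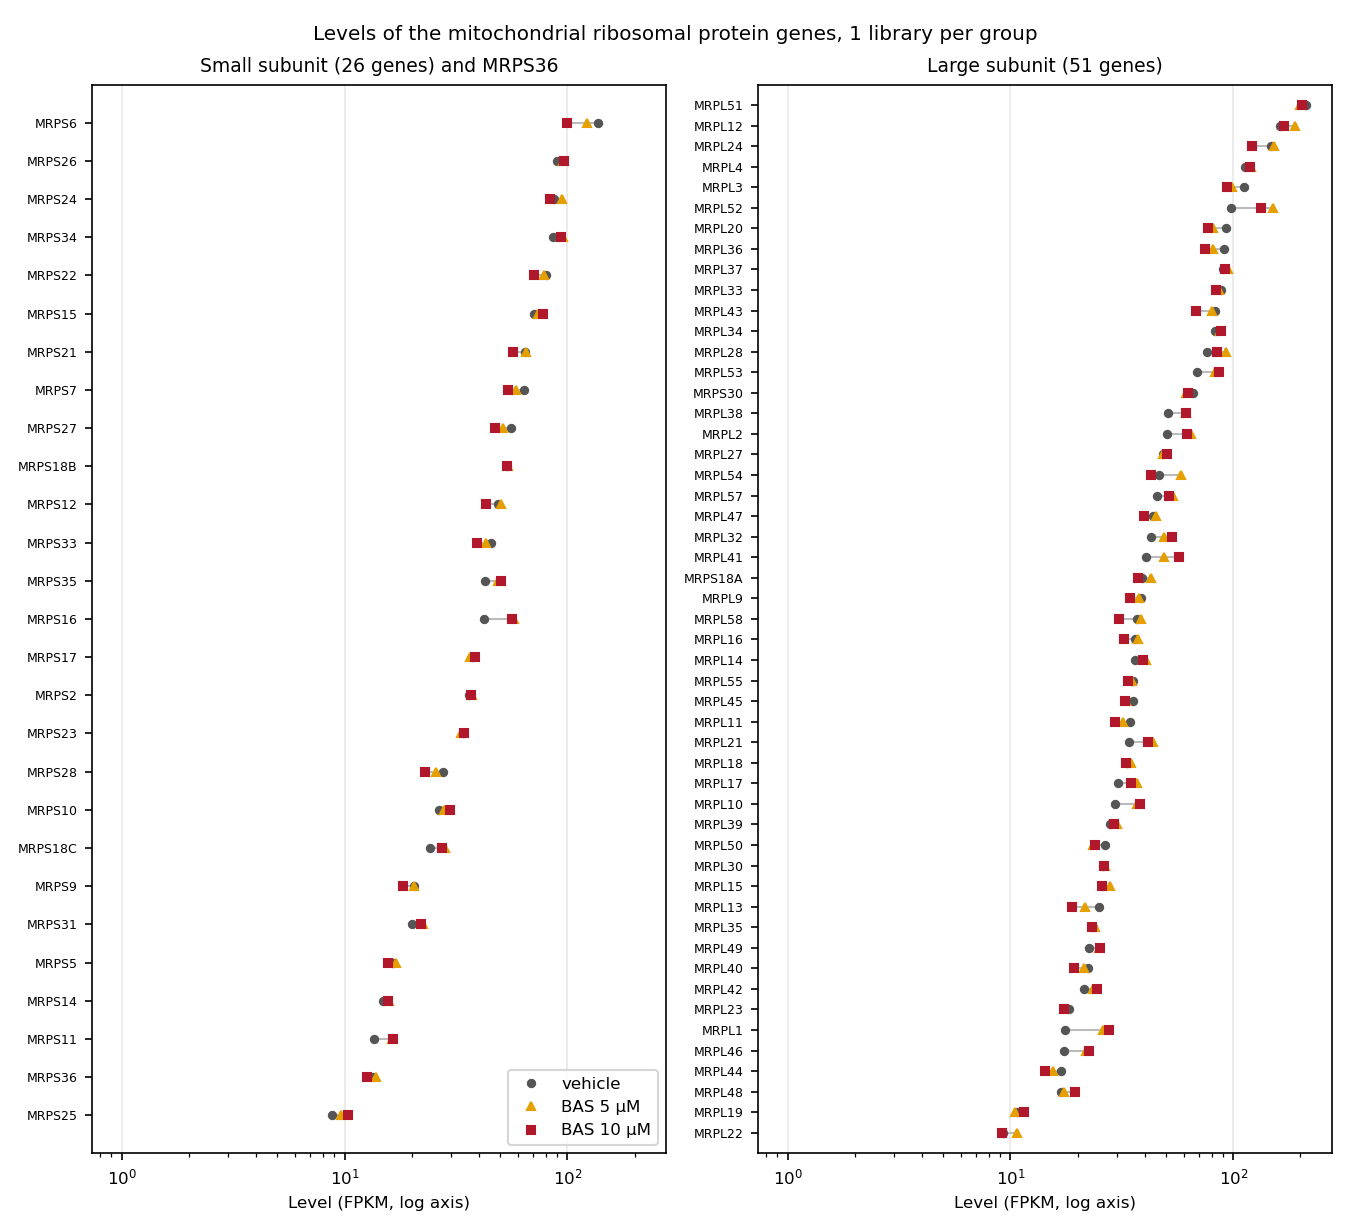
Levels of the 78 genes in FPKM (log axis), 1 library per group: grey circles, vehicle; yellow triangles, BAS 5 µM; red squares, BAS 10 µM. The left panel holds the small subunit genes and MRPS36, and the right panel the large subunit genes. Within each panel, genes run down the page by their level with vehicle. Over both panels that level ranges from 211.67 FPKM for MRPL51 to 8.74 FPKM for MRPS25. The 3 symbols of most genes lie close together or overlap.

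Against this range of levels, the differences between libraries were small. Differences were taken in log2(FPKM + 1), and 2 limits of size were set: a smaller one at a difference of 0.32 either way (25% higher or 20% lower in FPKM + 1), and 2-fold at a difference of 1. At 5 µM against vehicle, the median difference over the 78 genes was 0.05, against 0.02 over all 11512 genes. At 10 µM against vehicle it was 0.01, against 0.05 over all genes. The median at 10 µM was below 0 under 4 other treatments of the values (-0.05 with median-ratio scaling), and at 5 µM it was just under 0 with a common total or with trends in GC content and length removed.

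No member differed 2-fold in any comparison. The background was low too: among all genes, 0.539% passed 2-fold upward and 0.217% downward at 5 µM against vehicle. The shares were 1.31% upward and 0.643% downward at 10 µM against vehicle, and 0.0434% in each direction at 10 µM against 5 µM. With shares this low, 78 genes without such a difference are near the background.

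At the smaller limit, 6 of the 78 genes (7.69%) were higher at 5 µM than with vehicle, against 12.3% of all genes, and 0 were lower, against 8.91%. At 10 µM, 7 genes (8.97%) were past the limit above vehicle, against 18.8% of all genes, and 2 (2.56%) were past it below vehicle, against 11.5%. This balance rests on the scaling: 4 were higher and 7 lower with median-ratio scaling, 4 higher and 5 lower with quantile normalization, and 5 higher and 6 lower once trends in GC content and length were removed. Within the limit lay 92.3% of the genes at 5 µM and 88.5% at 10 µM, where all genes gave 78.7% at 5 µM and 69.7% at 10 µM. The middle 50% of the differences spanned 0.22 for the 78 genes and 0.33 for all genes at 5 µM, and 0.31 for the 78 genes and 0.40 for all genes at 10 µM. Since low levels give wider differences, the span was also taken over the 6710 genes with a mean at or above 9.57 FPKM, that of the lowest member, where it was 0.30 at 5 µM and 0.37 at 10 µM. The narrower span of the 78 genes is a description of these libraries and has no test.

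**Figure D2:**
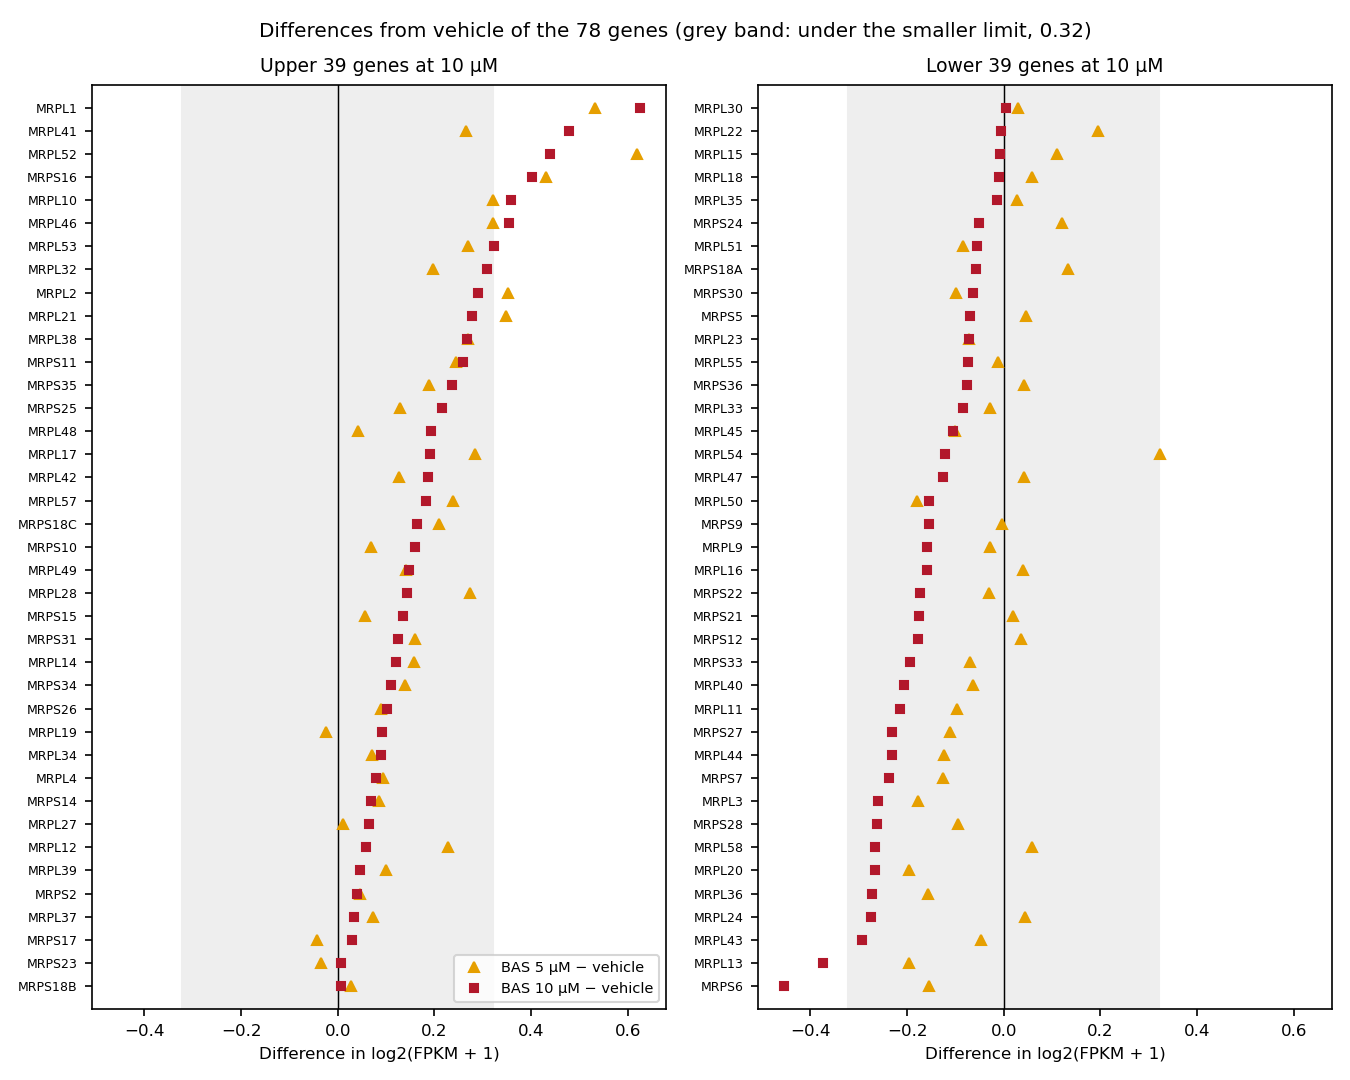
Difference from vehicle in log2(FPKM + 1) for each of the 78 genes, ordered by the difference at 10 µM: yellow triangles, BAS 5 µM minus vehicle; red squares, BAS 10 µM minus vehicle; grey band, differences under 0.32. At 10 µM the genes form an unbroken slope between -0.45 (MRPS6) and 0.63 (MRPL1), with 9 squares outside the band.

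The highest difference at 10 µM was that of MRPL1, the protein of the flexible L1 stalk that guides used tRNA off the ribosome. MRPL1 measured 17.7 FPKM with vehicle, 25.98 FPKM with 5 µM BAS and 27.8 FPKM with 10 µM BAS. Both doses stood above vehicle and close to each other, at ratios to vehicle of 1.47 at 5 µM and 1.57 at 10 µM. The difference of 0.63 at 10 µM was the only one of the 78 to pass 1.5-fold there. MRPL52, a large subunit protein without a bacterial counterpart, measured 97.6 FPKM with vehicle, 151 FPKM with 5 µM BAS and 133 FPKM with 10 µM BAS. It was highest at 5 µM, where its difference of 0.62 was the highest of the 78 genes.

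MRPL41, also without a bacterial counterpart, measured 40.6 FPKM with vehicle, 49.0 FPKM with 5 µM BAS and 56.9 FPKM with 10 µM BAS. Its level was in the order of the doses, with a ratio to vehicle of 1.40 at 10 µM. Its transcript has 71.9% GC, the highest of the 78, and its difference of 0.48 at 10 µM was 0.28 once trends in GC content and length were removed, which is under the smaller limit. MRPS16, a small subunit protein whose mutation in humans causes a combined deficiency of respiratory chain complexes, measured 42.3 FPKM with vehicle, 57.3 FPKM with 5 µM BAS and 56.1 FPKM with 10 µM BAS. Both doses were alike and above vehicle, with differences of 0.43 at 5 µM and 0.40 at 10 µM.

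The remaining members above the limit lay nearer to it. MRPL10, which anchors the stalk, measured 29.4 FPKM with vehicle, 37.0 FPKM with 5 µM BAS and 37.9 FPKM with 10 µM BAS. MRPL46, a protein of the central protuberance, measured 17.3 FPKM with vehicle, 21.9 FPKM with 5 µM BAS and 22.4 FPKM with 10 µM BAS. Both were 0.32 above vehicle at 5 µM, just under the limit, and 0.36 (MRPL10) and 0.35 (MRPL46) above it at 10 µM. With median-ratio scaling both differences at 10 µM were 0.30, under the limit, and MRPL46 shares 64.5% of its 50-base sequences with AC013489.1, so that its reads are uncertain. Of 3 further large subunit genes, named after their values were seen, MRPL53 was past the limit at 10 µM (difference 0.32) and MRPL2 (0.35) and MRPL21 (0.35) at 5 µM. MRPL54 was just past the limit at 5 µM (0.32), a call lost under 4 alternatives (0.18 to 0.30), and was at -0.12 at 10 µM.

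The lowest difference at 10 µM was that of MRPS6, a small subunit protein with a bacterial counterpart. MRPS6 measured 137 FPKM with vehicle, 123 FPKM with 5 µM BAS and 99.5 FPKM with 10 µM BAS. The level went down with each dose, to a ratio of 0.728 of vehicle at 10 µM. MRPS6 shares 29.3% of its 50-base transcript sequences with other genes, mainly AP000317.2, so that some reads could be split between these genes. SLC5A3, a myo-inositol transporter gene encoded in the same locus, measured 21.6 FPKM with vehicle, 20.1 FPKM with 5 µM BAS and 21.3 FPKM with 10 µM BAS. MRPL13, a large subunit protein with a bacterial counterpart, measured 24.9 FPKM with vehicle, 21.6 FPKM with 5 µM BAS and 19.0 FPKM with 10 µM BAS. Its level was also ordered against dose, and its difference at 10 µM was -0.37.

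The next 4 genes in this order, MRPL43, MRPL24, MRPL36 and MRPL20, were all of the large subunit and lay within the smaller limit. With median-ratio scaling all 4 were past it, from -0.35 for MRPL43 to -0.33 for MRPL20. MRPL43 measured 83.2 FPKM with vehicle, 80.4 FPKM with 5 µM BAS and 67.7 FPKM with 10 µM BAS, so that the gap from vehicle was nearly all at the higher dose. MRPL36 measured 90.6 FPKM with vehicle, 81.1 FPKM with 5 µM BAS and 74.8 FPKM with 10 µM BAS. MRPL20 measured 93.1 FPKM with vehicle, 81.1 FPKM with 5 µM BAS and 77.2 FPKM with 10 µM BAS. For MRPL36 and MRPL20 the 5 µM library lay between the other two. At 5 µM the 3 lowest differences were those of MRPL13, MRPL20 and MRPL50, from -0.20 to -0.18.

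Taken by subunit, the small subunit genes had a median difference of 0.05 at 5 µM and 0.02 at 10 µM against vehicle, and the large subunit genes 0.06 at 5 µM and -0.01 at 10 µM. The sign of the small subunit median was the opposite with quantile normalization or with GC and length trends removed at both doses, so the small subunit can be given no direction. At 10 µM the small subunit had 1 gene (3.85%) past the smaller limit above vehicle and 1 (3.85%) below, and the large subunit 6 (11.8%) above and 1 (1.96%) below. All 4 shares lie under those of all genes, 18.8% above and 11.5% below. The 45 genes listed with a bacterial counterpart had a median difference of -0.01 at 10 µM, and the 32 listed without one 0.02. The listing need not be right for every protein. Of the 7 genes past the smaller limit above vehicle at 10 µM, 4 (MRPL41, MRPL46, MRPL52 and MRPL53) had no bacterial counterpart. These 4 were 12.5% of the 32 genes listed without one. The other 3 were 6.67% of the 45 listed with one, and both shares lie under the 18.8% of all genes.

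The functional sites of the large subunit were read in the same way. The stalk, which recruits the translation factors, holds MRPL10, MRPL11 and MRPL12, whose differences at 10 µM against vehicle were 0.36, -0.21 and 0.06. MRPL10 and MRPL11 lay on opposite sides of vehicle, and the difference of MRPL12 was -0.07 once trends in GC content and length were removed. MRPL11 measured 34.4 FPKM with vehicle, 32.1 FPKM with 5 µM BAS and 29.5 FPKM with 10 µM BAS, while MRPL10 was above vehicle at both doses.

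For the central protuberance, where the subunits meet, 6 genes were listed (MRPL18, MRPL27, MRPL38, MRPL40, MRPL46 and MRPL48), and the list need not be complete. The median difference of these 6 genes was 0.13 at 10 µM. MRPL38 measured 50.8 FPKM with vehicle, 61.4 FPKM with 5 µM BAS and 61.4 FPKM with 10 µM BAS. MRPL40 measured 22.4 FPKM with vehicle, 21.4 FPKM with 5 µM BAS and 19.2 FPKM with 10 µM BAS. MRPL38 was above vehicle and MRPL40 below, and MRPL48 was highest at 10 µM. MRPL48 measured 16.9 FPKM with vehicle, 17.5 FPKM with 5 µM BAS and 19.5 FPKM with 10 µM BAS. MRPL18 and MRPL27 differed from vehicle by at most 0.06 in size at either dose, whereas the difference of MRPL38 at 10 µM was 0.07 once trends in GC content and length were removed, against 0.27 as deposited.

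Around the exit of the tunnel through which the new protein leaves, 7 genes were listed (MRPL22, MRPL23, MRPL24, MRPL39, MRPL44, MRPL45 and MRPL47). This list, too, need not be complete. The median difference of these 7 genes from vehicle was 0.04 at 5 µM and -0.10 at 10 µM. At either dose 0 of the 7 passed the smaller limit, against background shares at 10 µM of 18.8% above and 11.5% below. MRPL24 was past the limit at 10 µM with median-ratio scaling (-0.33) and with GC and length trends removed (-0.32). MRPL24, which forms part of the tunnel exit in bacteria, measured 147 FPKM with vehicle, 152 FPKM with 5 µM BAS and 121 FPKM with 10 µM BAS. Its low value was at 10 µM. MRPL44, whose mutation in humans causes a cardiomyopathy, measured 16.9 FPKM with vehicle, 15.4 FPKM with 5 µM BAS and 14.3 FPKM with 10 µM BAS, in the reverse order of the doses. MRPL45, which helps to hold the ribosome at the inner membrane, measured 35.4 FPKM with vehicle, 32.9 FPKM with 5 µM BAS and 32.8 FPKM with 10 µM BAS. The remaining 4 genes differed from vehicle at 10 µM by -0.13 (MRPL47), -0.07 (MRPL23), -0.01 (MRPL22) and 0.05 (MRPL39).

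MRPS18A, MRPS18B and MRPS18C all descend from a bacterial protein, S18. MRPS18C takes its place in the small subunit, and the other two sit elsewhere in the human ribosome, so they are counted above among the proteins without a bacterial counterpart. MRPS18A measured 39 FPKM with vehicle, 42.9 FPKM with 5 µM BAS and 37.5 FPKM with 10 µM BAS. MRPS18B measured 53.3 FPKM with vehicle, 54.4 FPKM with 5 µM BAS and 53.6 FPKM with 10 µM BAS. MRPS18C measured 24.3 FPKM with vehicle, 28.3 FPKM with 5 µM BAS and 27.4 FPKM with 10 µM BAS. All 3 lay within the smaller limit of vehicle at both doses, and their order by level was the same in each library. MRPS18A shares 58.7% of its 50-base sequences with other genes, mainly RSPH9 (0.27 FPKM at 10 µM and 0.17 FPKM with vehicle), and MRPS18C 74.3%, mainly ABRAXAS1 (7.50 FPKM at 10 µM and 6.5 FPKM with vehicle). MRPS36, outside the ribosome, measured 13.4 FPKM with vehicle, 13.8 FPKM with 5 µM BAS and 12.7 FPKM with 10 µM BAS, also near vehicle.

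The comparison between the doses does not use the vehicle library. At 10 µM against 5 µM, the median difference over the 78 genes was -0.05, against 0.04 over all genes, and 55 of the 78 genes were lower at 10 µM. Among all 11512 genes, 4725 were lower at 10 µM. The median stayed below 0 and below that of all genes under each of the scalings tried, from -0.09 with median-ratio scaling to -0.01 with a common total. With trends in GC content and length removed it was -0.01, against 0.03 over all genes. The gap to all genes was then -0.05, against -0.09 as reported. The differences were small: 0 of the 78 genes passed the smaller limit upward, against 3.86% of all genes, and 2 (2.56%) downward, against 2.86%.

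The 2 genes past the limit between doses were MRPL54 and MRPL58. MRPL54 measured 46.4 FPKM with vehicle, 58.3 FPKM with 5 µM BAS and 42.5 FPKM with 10 µM BAS, so that the 5 µM library stood above the other 2. MRPL58, a hydrolase that frees stalled chains and is built into the large subunit, measured 37.0 FPKM with vehicle, 38.6 FPKM with 5 µM BAS and 30.6 FPKM with 10 µM BAS. Its low value was at 10 µM alone, and its difference between the doses of -0.33 was under the limit at -0.28 with a common total. MRPL24 followed at -0.32, just under the limit. The 3 highest differences between doses were those of MRPL41 (0.21), MRPL48 (0.15) and MRPL19 (0.12).

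Values for 2 other families of protein complexes are set beside these. The 81 cytosolic ribosomal protein genes past the filter, whose products form the ribosome of the cytosol, had median differences of 0.11 at 5 µM and -0.07 at 10 µM against vehicle and -0.18 at 10 µM against 5 µM. Between the doses, 77 of these 81 genes were lower at 10 µM, and 12 (14.8%) passed the smaller limit downward, against 2 (2.56%) of the 78 mitochondrial ribosomal protein genes and 2.86% of all genes. A further 48 genes were taken by symbols that start with NDUF, the name of nuclear-encoded subunits of respiratory complex I. Complex I joins such subunits to others made by mitochondrial ribosomes, and not every gene with an NDUF symbol need encode a subunit. The medians of these 48 genes were 0.02 at 5 µM and -0.04 at 10 µM against vehicle and -0.09 between the doses. No test of these differences between families was possible.

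**Figure D3:**
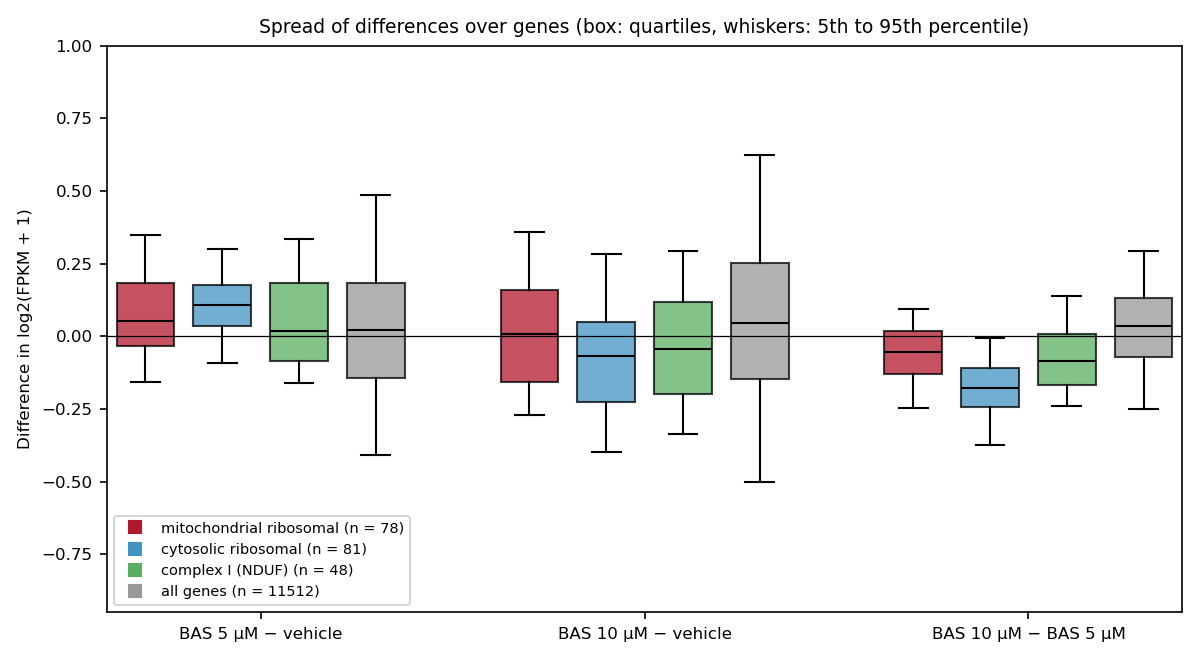
Differences in log2(FPKM + 1) over genes for 3 comparisons. Shown are the mitochondrial ribosomal protein genes (red, 78), the cytosolic ribosomal protein genes (blue, 81), the genes with NDUF symbols (green, 48) and all genes past the filter (grey, 11512). Boxes span the quartiles with the median as a line and whiskers run from the 5th to the 95th percentile of genes; between the doses the medians are -0.05, -0.18 and -0.09 in the 3 families and 0.04 over all genes.

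The promoters of the members at both ends of the order were read in RefSeq sequence of the GRCh38.p14 build, over 250 bases before and 50 bases from the start site. They show what these genes carry near their starts and are not evidence that a factor bound there. Capitals mark matches, on either strand, to the ETS motif CCGGAAG, the YY1 motif AAGATGGCG and the GC box GGGCGG. Shown are the 3 highest and 2 lowest genes at 10 µM among those with an entry in the table. MRPL1 lies at chr4:77862580-77862879, plus strand, MRPL41 at chr9:137551629-137551928, plus strand, MRPL52 at chr14:22829637-22829936, plus strand, MRPS6 at chr21:34073328-34073627, plus strand and MRPL43 at chr10:100987448-100987747, minus strand.
MRPL1: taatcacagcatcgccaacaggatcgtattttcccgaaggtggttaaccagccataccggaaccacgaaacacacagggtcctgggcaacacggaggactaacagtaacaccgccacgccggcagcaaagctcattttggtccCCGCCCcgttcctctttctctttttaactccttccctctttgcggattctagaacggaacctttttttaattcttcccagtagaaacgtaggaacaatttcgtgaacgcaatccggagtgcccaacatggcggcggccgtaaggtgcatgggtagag
MRPL41: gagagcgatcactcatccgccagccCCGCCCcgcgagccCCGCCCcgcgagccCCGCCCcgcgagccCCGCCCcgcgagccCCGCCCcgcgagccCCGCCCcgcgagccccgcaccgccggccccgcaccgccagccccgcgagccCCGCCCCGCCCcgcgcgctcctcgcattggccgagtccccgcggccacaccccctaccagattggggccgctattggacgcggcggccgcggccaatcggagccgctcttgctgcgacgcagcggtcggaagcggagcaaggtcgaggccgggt
MRPL52: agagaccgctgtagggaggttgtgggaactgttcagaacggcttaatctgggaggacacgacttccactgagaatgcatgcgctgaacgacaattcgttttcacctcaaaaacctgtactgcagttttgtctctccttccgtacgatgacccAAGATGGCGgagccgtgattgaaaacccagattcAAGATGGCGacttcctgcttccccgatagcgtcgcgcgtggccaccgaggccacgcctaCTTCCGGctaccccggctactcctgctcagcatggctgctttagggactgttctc
MRPS6: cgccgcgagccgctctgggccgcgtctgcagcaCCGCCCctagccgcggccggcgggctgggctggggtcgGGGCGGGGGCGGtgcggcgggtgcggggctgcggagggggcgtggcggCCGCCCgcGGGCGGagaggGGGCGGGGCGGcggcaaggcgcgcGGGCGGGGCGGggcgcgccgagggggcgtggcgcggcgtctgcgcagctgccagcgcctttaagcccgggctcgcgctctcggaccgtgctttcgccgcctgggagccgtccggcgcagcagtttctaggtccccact
MRPL43: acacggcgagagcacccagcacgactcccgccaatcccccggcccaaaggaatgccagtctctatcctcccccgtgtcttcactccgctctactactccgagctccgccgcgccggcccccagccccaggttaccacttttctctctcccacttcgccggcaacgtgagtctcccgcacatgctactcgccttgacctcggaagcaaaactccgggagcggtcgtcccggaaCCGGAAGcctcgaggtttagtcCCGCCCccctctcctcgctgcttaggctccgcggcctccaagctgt

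The 5 promoters differ. That of MRPL41 holds 8 GC boxes, most of them evenly spaced, and that of MRPS6 holds 9, counting boxes that overlap, although MRPL41 was above and MRPS6 below vehicle. MRPL52 has 2 YY1 motifs and an ETS motif, which starts 5 bases before the start site, and no GC box. MRPL43 has an ETS motif 18 bases before the start site and a GC box after it. MRPL1 holds a single GC box and neither of the other motifs.

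Of the 78 genes, 69 had a promoter in the table. The ETS motif, recognised by GABPA among others, was in 29 of the 69 (42.0%), against 20.5% of 9167 promoters of coding genes past the filter and 14.2% of all 15842. The YY1 motif was in 13 (18.8%), against 4.31% of the promoters of genes past the filter. Both occurred in 4 of the 69 (MRPL38, MRPL52, MRPS10 and MRPS18A, 5.80%), against 1.00%, and they overlapped in none of the 4. The NRF1 motif GCGCATGCG was in 3 (4.35%), against 4.0%, and the E-box CACGTG in 6 (8.70%), against 10.5%. The GC box was in 42 (60.9%), against 71.4%. The cAMP response element TGACGTCA was in 0 of the 69, against 3.51%, and the C/EBP-ATF composite motif TGATGNAA in 1 (MRPL55), against 1.57% of the promoters of genes past the filter.

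These motifs are set beside the differences as a description only. Members with the ETS motif had a median difference from vehicle of -0.05 at 10 µM, and members without it 0.04. For the YY1 motif the medians were 0.01 with it and 0.02 without it, and for the GC box 0.04 with it and 0.01 without it. For the E-box they were 0.01 with it and 0.01 without it. The 3 members with the NRF1 motif (MRPL17, MRPL22 and MRPS18C) had a median of 0.16, against 0.01 without it, and their own differences were 0.19, -0.01 and 0.16.

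Many of these genes start back to back with another gene, so that 2 genes read in opposite directions share the DNA between their starts. In RefSeq, 18 of the 69 (26.1%) had a coding neighbour on the other strand starting within 1000 bases, against 14.1% of 9180 genes past the filter. For 1 of the 18, MRPS2, the neighbour's level was not analysed here, and 2 of the others, MRPL46 and MRPS11, are each other's neighbour. MRPS11, a small subunit protein, measured 13.6 FPKM with vehicle, 16.3 FPKM with 5 µM BAS and 16.5 FPKM with 10 µM BAS. MRPS11 and MRPL46, whose starts are 320 bases apart, were both above vehicle at both doses.

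In other pairs the neighbour was far from vehicle and the ribosomal gene close to it. PPP1R10, a targeting subunit of protein phosphatase 1 that starts 597 bases from MRPS18B, measured 26.7 FPKM with vehicle, 9.25 FPKM with 5 µM BAS and 6.24 FPKM with 10 µM BAS. Its ratio to vehicle at 10 µM was 0.234, while that of MRPS18B was 1.00. NCAPD2, a condensin subunit that starts 840 bases from MRPL51, measured 83.3 FPKM with vehicle, 52.4 FPKM with 5 µM BAS and 47.8 FPKM with 10 µM BAS. MRPL51 stayed at 0.963 of vehicle at 10 µM, against 0.574 for NCAPD2. MRPL51 shares 14.4% of its 50-base transcript sequences with NCAPD2, so that some reads could be split between these genes.

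The pair of MRPL32 and PSMA2 lay on opposite sides of vehicle. PSMA2, a proteasome subunit that starts 202 bases from MRPL32, measured 55.9 FPKM with vehicle, 45.8 FPKM with 5 µM BAS and 42.2 FPKM with 10 µM BAS. MRPL32, a large subunit protein known in yeast and mouse to need processing by the m-AAA protease, measured 42.6 FPKM with vehicle, 49.0 FPKM with 5 µM BAS and 53.0 FPKM with 10 µM BAS. Both followed the order of the doses, in opposite directions. APBA3, an adaptor protein gene that starts 990 bases from MRPL54, measured 8.85 FPKM with vehicle, 12.6 FPKM with 5 µM BAS and 14.3 FPKM with 10 µM BAS, whereas MRPL54 was highest at 5 µM.

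**Figure D4:**
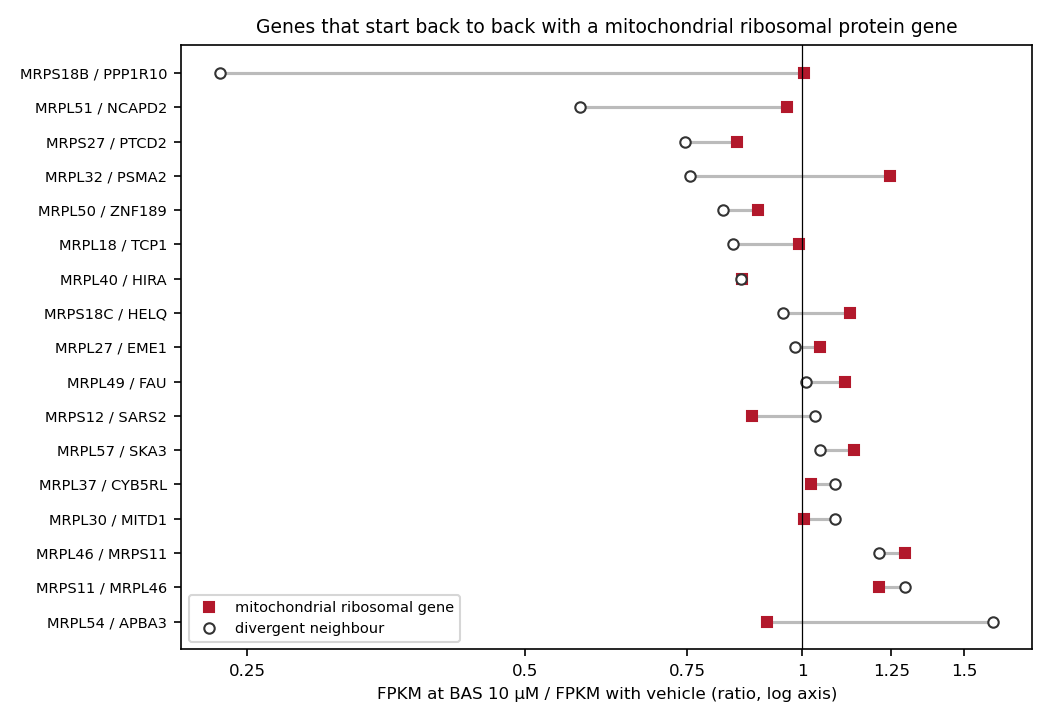
Ratio of the level at BAS 10 µM to that with vehicle (log axis) for 17 mitochondrial ribosomal protein genes (red squares) and the gene that starts back to back with each (open circles), joined by a line; MRPL46 and MRPS11 appear in both roles. The squares run from 0.850 (MRPS27) to 1.29 (MRPL46), while the circles run from 0.234 (PPP1R10) to 1.61 (APBA3).

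The 5 ribosomal protein genes that the symbol rule does not reach had a median difference from vehicle of 0.15 at 5 µM and 0.28 at 10 µM, where the 78 genes had 0.05 at 5 µM and 0.01 at 10 µM. All 5 were above vehicle at 10 µM, against 40 of the 78 (51.3%) and 56.5% of all genes. Neither these 5 genes nor the related lists below were recomputed with other scalings or with GC and length trends removed. GADD45GIP1, a large subunit protein also known as CRIF1, measured 204 FPKM with vehicle, 252 FPKM with 5 µM BAS and 280 FPKM with 10 µM BAS. CHCHD1, of the small subunit, measured 25.7 FPKM with vehicle, 36.0 FPKM with 5 µM BAS and 31.7 FPKM with 10 µM BAS. GADD45GIP1 followed the order of the doses, with a difference of 0.45 at 10 µM, and was the 1 of these 5 genes past the smaller limit there, against 18.8% of all genes. AURKAIP1 differed from vehicle at 10 µM by 0.28, DAP3 by 0.14 and PTCD3 by 0.06, all 3 of the small subunit.

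Among 24 measured genes that assemble the particle or modify its RNA, 4 (16.7%) passed the smaller limit above vehicle at 10 µM and 3 (12.5%) below. These shares are near the background of 18.8% above and 11.5% below over all genes. RPUSD3, a pseudouridine synthase acting on mitochondrial RNA, measured 17.2 FPKM with vehicle, 26.7 FPKM with 5 µM BAS and 29.5 FPKM with 10 µM BAS. TFB1M, which methylates the small subunit RNA, measured 5.76 FPKM with vehicle, 4.74 FPKM with 5 µM BAS and 3.13 FPKM with 10 µM BAS. RPUSD3 was above vehicle at both doses and TFB1M was lowest at 10 µM, with differences there of 0.74 and -0.71. Both are larger than that of any of the 78 genes.

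Of 12 measured genes for mitochondrial translation factors, 0 passed the smaller limit above vehicle at 10 µM, against 18.8% of all genes, and 1 (8.33%) below, against 11.5%. The 1 gene below was MRRF, the recycling factor that splits the ribosome after a protein is finished. MRRF measured 12.9 FPKM with vehicle, 8.22 FPKM with 5 µM BAS and 5.92 FPKM with 10 µM BAS. Its level was lower at each higher dose, and its difference of -1.01 at 10 µM was 2-fold. TACO1, a translational activator of the COX1 messenger RNA, measured 25.6 FPKM with vehicle, 33.4 FPKM with 5 µM BAS and 31.7 FPKM with 10 µM BAS, above vehicle at both doses.

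In mitochondrial transcription and RNA stability, 0 of 10 genes passed the smaller limit at 10 µM against vehicle, where 18.8% of all genes were above it and 11.5% below. LRPPRC, which stabilises mitochondrial messenger RNAs, measured 64.1 FPKM with vehicle, 53.6 FPKM with 5 µM BAS and 51.9 FPKM with 10 µM BAS. TEFM, the mitochondrial transcription elongation factor, measured 8.18 FPKM with vehicle, 8.04 FPKM with 5 µM BAS and 10.1 FPKM with 10 µM BAS. LRPPRC was below vehicle at both doses and TEFM above it at 10 µM alone.

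Of 8 measured nuclear regulators past the filter, 0 passed the smaller limit above vehicle at 10 µM, against 18.8% of all genes, and 2 below, against 11.5%. NRF1, a transcription factor for many nuclear genes of mitochondria, measured 6.80 FPKM with vehicle, 5.47 FPKM with 5 µM BAS and 4.67 FPKM with 10 µM BAS. PPARGC1B, a coactivator of such genes, measured 3.25 FPKM with vehicle, 2.45 FPKM with 5 µM BAS and 1.93 FPKM with 10 µM BAS. Both levels were in the reverse order of the doses. GABPA, the ETS factor of this group, measured 14.2 FPKM with vehicle, 10.9 FPKM with 5 µM BAS and 11.9 FPKM with 10 µM BAS, lowest at 5 µM. ESRRA and MYC lay within the smaller limit at both doses, and PPARGC1A was at or under 0.04 FPKM in every library.

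**Figure D5:**
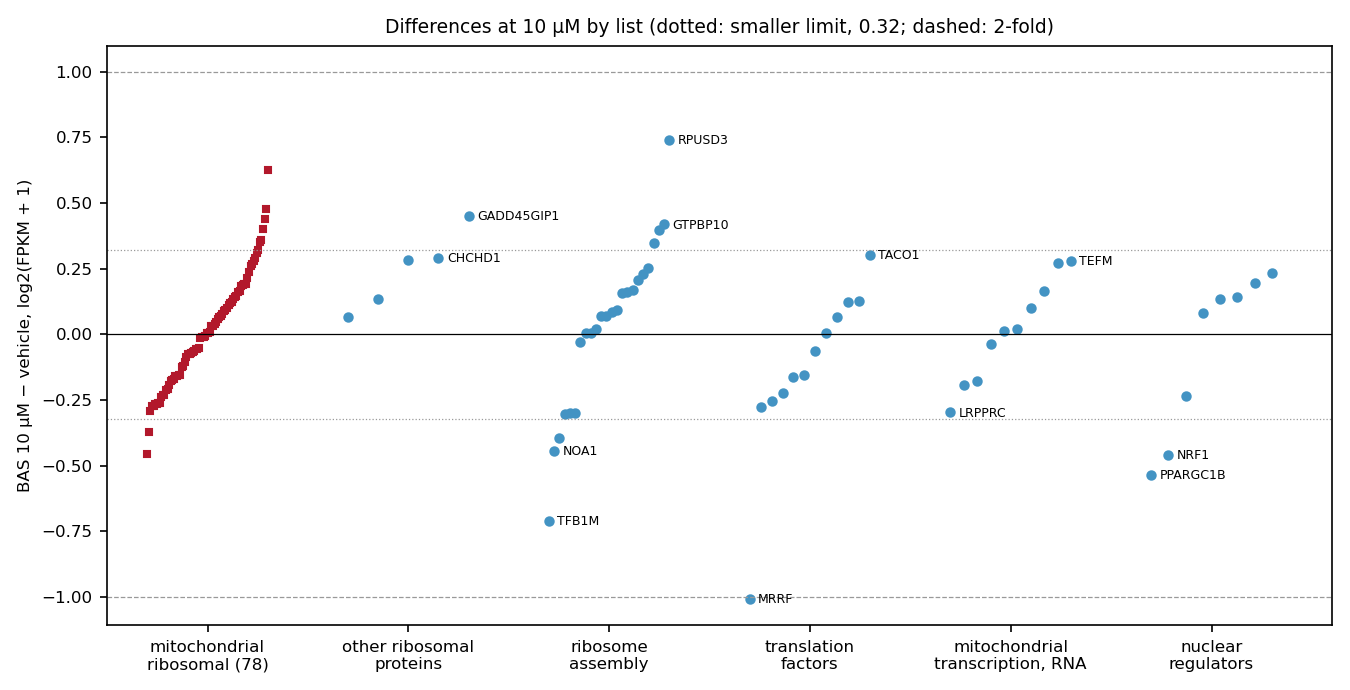
Differences between BAS 10 µM and vehicle in log2(FPKM + 1), 1 point per gene, sorted within each list: the 78 mitochondrial ribosomal protein genes (red squares) and 5 lists of related genes (blue circles), with the extreme genes named. Dotted lines mark a difference of 0.32 and dashed lines 2-fold; MRRF, at -1.01, is the 1 gene at the 2-fold line, and the red squares stay between -0.45 and 0.63.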

How the data were processed

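RNA was sequenced as single-end reads of 50 bases, 1 library per group. The authors deposited FPKM values per gene symbol, per the file headers. The submitters' processing notes name Trim Galore, BWA, Bowtie2, Cufflinks, Cuffdiff and hg19, with no versions or roles. Depth is unknown, and scaling between libraries is not given in the sources used here. Groups follow the treatment labels. Rows of the 2 repeated symbols were summed. Values were compared as log2(FPKM + 1), which understates differences of low genes, among the 11512 genes whose mean over the libraries reached 1 FPKM. Python 3.11.15, numpy 2.4.6 and pandas 2.3.3 were used, and the counting was tested on simulated data. GC content, length and shared 50-base sequences came from GENCODE 29 by symbol (78 of 78 matched), and promoters, with their coordinates, from RefSeq GRCh38.p14 (69 of 78 matched), not from hg19. Named genes were the extremes of each comparison and of the levels with vehicle, the structural groups and, in each related list, the 2 largest differences at 10 µM. The members and lists were chosen with earlier results of these data known. Alternatives were other pseudocounts, filters, scalings and limits, removal of trends, of genes with shared sequence or of MRPS36, and a mean for the median.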

Additional observations from a re-analysis of the deposited data

How the results depend on the processing

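No paired analysis was possible because each group has 1 library, and no replicate could be left out. The medians over the 78 genes and over each subunit moved by under 0.1 under every alternative, with signs near 0 that changed as given above. The count past the smaller limit above vehicle at 5 µM was 6 as reported, 3 with a common total, 3 with quantile normalization and 1 at a 1.5-fold limit. The count higher at 10 µM was 7 as reported, 4 with median-ratio scaling, 4 with quantile normalization and 1 at 1.5-fold. The count lower at 10 µM was 2 as reported, 7 with median-ratio scaling, 5 with quantile normalization, 6 after removal of GC and length trends, and 0 at 1.5-fold. The count lower at 10 µM than at 5 µM was 2 as reported, 4 with median-ratio scaling, 1 with a common total, 1 with the trends removed and 0 at 1.5-fold. The stricter limit keeps fewer genes by construction, and the cause of the other shifts was not tested. Of 1035 values recomputed for 35 named members, 1015 stayed within 0.1 of the reported difference and 20 moved further. All 20 moved with GC and length trends removed, where the other 85 values stayed within 0.1. Other filters and the removal of genes with shared sequence or of MRPS36 only drop genes. A single gene's difference could not move under them, so those values are no check of it. The limits are 1 library per group, unknown depth, and 5 genes that share 50% or more of their sequence with other genes (MRPL12, MRPL46, MRPS18A, MRPS18C and MRPS24). At a lower limit of 20%, 12 of the 78 genes share sequence, among them MRPL38 (47.6%), MRPS6 (29.3%) and MRPL20 (25.5%).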
